A study of Mus musculus with 19 samples.

Results

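Transcripts of adult hemoglobin and of 2 other red cell genes were followed in mouse calf muscle. The 6 genes were taken by name from the symbol column of the counts table, and all 6 were found among its 54176 rows. They are the alpha globin genes Hba-a1 and Hba-a2, the beta globin genes Hbb-bs and Hbb-bt, Alas2, which encodes the red cell form of the first enzyme of heme synthesis, and Slc4a1, which encodes the anion exchanger band 3 of the red cell membrane. The muscle was gastrocnemius of FVB mice, either wild type (WT) or carrying mCK-hLPL, a transgene for human lipoprotein lipase driven by the muscle creatine kinase promoter. All animals had lost weight, and the tissue was collected while the loss was being maintained (WLM) or once refeeding had gone on for 24 hours, the opening day of regain (REL). There were 5 libraries in each group except WT_REL, which had 4. Age and any perfusion of the tissue were not stated, and the labels do not say that each library came from its own animal. The p-values therefore measure only the spread between these samples.

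Hemoglobin is a tetramer of alpha and beta chains, each of which holds a heme group, and its genes are switched on during red cell formation in the marrow and spleen by factors that include GATA1 and KLF1. Mouse red cells lose their nucleus, but young ones, the reticulocytes, enter the blood with globin messenger RNA still in them. In bulk muscle a higher level of such a transcript can come from more blood cells in the piece or from more of the RNA in each cell, and these cannot be told apart here.

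The 2 alpha globin genes lie close together on chromosome 11, and the 2 beta globin genes on chromosome 7. On GRCm38, Hba-a1 (ENSMUSG00000069919.7) spans chr11:32283511-32284465 and Hba-a2 (ENSMUSG00000069917.7) chr11:32296489-32297298, both on the plus strand. Hbb-bs (ENSMUSG00000052305.6) spans chr7:103826534-103828096 and Hbb-bt (ENSMUSG00000073940.3) chr7:103812524-103813996, both on the minus strand. Alas2 (ENSMUSG00000025270.13) spans chrX:150547375-150570638 on the plus strand, and Slc4a1 (ENSMUSG00000006574.15) chr11:102348824-102366203 on the minus strand.

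The coding sequences of each pair are nearly the same, which limits how far a count can be given to 1 copy. Those of Hba-a1 and Hba-a2, 429 bases each, differed at 1 base, C381T, counted from 1 at the start codon with the base of Hba-a1 first. Those of Hbb-bs and Hbb-bt, 444 bases each, also differed at 1 base, C417T, with the base of Hbb-bs first. Both changes fall on the third position of a codon. Bases 361 to 401 of the alpha pair and 397 to 437 of the beta pair are shown, with the differing base in capitals.
Hba-a1: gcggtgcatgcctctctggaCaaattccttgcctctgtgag
Hba-a2: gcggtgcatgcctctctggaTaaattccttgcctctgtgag
Hbb-bs: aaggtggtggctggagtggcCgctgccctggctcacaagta
Hbb-bt: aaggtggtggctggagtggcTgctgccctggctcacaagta
Over the annotated transcripts with their untranslated ends, 24.6% of the 31-base words of Hba-a1 were absent from Hba-a2 and 7.4% of those of Hba-a2 were absent from Hba-a1. For Hbb-bs and Hbb-bt the shares were 45.6% and 40.6%. How the authors' counting split reads between the copies was not stated, so the division between copies is uncertain, while the sum of a pair does not depend on that division. The sequences are of the reference genome, and FVB alleles were not analysed here.

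The 250 bases before the start of transcription of 4 of the genes are shown as a description of the reference sequence. Whether their words bear on the levels in these libraries was not tested. RefSeq windows on GRCm38.p6 were at hand for 5 of the 6 genes, all but Slc4a1, and those of Hba-a1 and Hba-a2 shared a run of 247 bases, so that 1 of the pair is printed. The RefSeq starts are not those of the longest GENCODE spans given above, so some windows reach into these spans. Capitals mark the words searched on both strands. These were the word of GATA factors (AGATAA, with T also allowed as its first letter and G as its last), CACCC, which KLF1 and related factors bind, CCAAT, the word of the CAAT box, and TATAA, that of the TATA box. Where capitals run on, words of the 2 strands adjoin or overlap.
Hba-a1, chr11:32283422-32283671, plus strand: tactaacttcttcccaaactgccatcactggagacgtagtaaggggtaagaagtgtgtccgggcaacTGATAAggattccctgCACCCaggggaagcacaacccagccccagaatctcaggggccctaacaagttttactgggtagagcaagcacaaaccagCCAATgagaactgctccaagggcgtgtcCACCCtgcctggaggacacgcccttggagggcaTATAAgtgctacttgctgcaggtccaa
Hbb-bs, chr7:103827929-103828178, minus strand: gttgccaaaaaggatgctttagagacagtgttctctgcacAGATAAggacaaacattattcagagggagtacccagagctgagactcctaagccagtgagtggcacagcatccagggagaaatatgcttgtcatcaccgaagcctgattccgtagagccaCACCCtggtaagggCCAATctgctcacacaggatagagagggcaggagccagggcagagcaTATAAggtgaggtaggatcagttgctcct
Hbb-bt, chr7:103813924-103814173, minus strand: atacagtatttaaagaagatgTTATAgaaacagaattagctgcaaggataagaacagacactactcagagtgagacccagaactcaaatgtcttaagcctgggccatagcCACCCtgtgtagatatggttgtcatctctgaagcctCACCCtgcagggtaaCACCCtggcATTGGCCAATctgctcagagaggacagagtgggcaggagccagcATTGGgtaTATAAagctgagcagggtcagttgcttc
Alas2, chrX:150547167-150547416, plus strand: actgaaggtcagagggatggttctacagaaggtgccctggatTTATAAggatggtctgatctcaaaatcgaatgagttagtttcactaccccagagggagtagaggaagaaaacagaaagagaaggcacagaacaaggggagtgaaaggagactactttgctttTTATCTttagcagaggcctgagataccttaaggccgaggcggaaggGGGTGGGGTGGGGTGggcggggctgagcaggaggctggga
The windows of Hba-a1, Hba-a2 and Hbb-bs each held all 4 kinds of word, against 1.08% of 32851 mouse windows of the same length. Among all windows a GATA word was in 26.5%, CACCC in 52%, CCAAT in 33.8% and TATAA in 22.8%. That of Hbb-bt held 3 CACCC and 3 CCAAT words but no GATA word, and that of Alas2 held 1 GATA and 3 CACCC words but no CCAAT. A match is a description of these letters and no evidence of binding.

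Total counts ran from 35595030 to 51073355 per library. The muscle genes used to check the tissue were abundant in all 4 groups, and the 10 of them summed to between 108011 and 169226 CPM (counts scaled to the library size, which was itself adjusted by the TMM method) in a library. Transcripts of lymph node (WT_WLM replicates 1 and 5 and mCK-hLPL_WLM replicate 3) and of liver (mCK-hLPL_REL replicates 4 and 5 and WT_REL replicate B) stood highest in 3 libraries each, and results on the 6 genes are given without them where this ends a call. The WT_REL libraries A and B carry no replicate number, because their column names and the sample titles number them differently.

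The hemoglobin genes together took between 0.0449% and 1.29% of all counts in a library. Before refeeding, wild-type libraries averaged a sum of 1092 ± 428 CPM and mCK-hLPL libraries 1543 ± 883 CPM (SD, n = 5 each). After it, wild-type libraries averaged 2307 ± 1555 CPM (SD, n = 4) and mCK-hLPL libraries 4683 ± 3913 CPM (SD, n = 5). The refed groups thus had the higher means and also the wider spreads. The lowest library of all was WT_WLM replicate 4 with 493 CPM, and the highest was mCK-hLPL_REL replicate 1 with 11531 CPM.

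Hba-a1, the more abundant alpha globin row, was at 354, 394, 558, 158 and 326 CPM in WT_WLM replicates 1 to 5 and at 1030.5, 370.4, 284, 463 and 369 CPM in mCK-hLPL_WLM replicates 1 to 5. After refeeding it was at 811, 442, 319.7 and 1552 CPM in WT_REL replicates 1, 2, A and B and at 4115, 1288, 955, 601 and 1044 CPM in mCK-hLPL_REL replicates 1 to 5. The refed libraries overlapped the WLM libraries, and 4 of the 9 lay above all 10 of WLM. Hba-a2, the second alpha globin gene, was at 169.8, 189.7, 285, 98.8 and 169 CPM in WT_WLM and at 505, 216, 153, 247 and 201 CPM in mCK-hLPL_WLM. It was at 413, 215, 181 and 760.4 CPM in WT_REL and at 1940.4, 590.1, 465, 297 and 500.1 CPM in mCK-hLPL_REL. Here 3 of the 9 refed libraries lay above all of WLM, and the same 2 libraries, replicate 1 of mCK-hLPL_WLM and replicate 1 of mCK-hLPL_REL, were the highest of their groups.

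Hbb-bs, the major beta globin row, was at 510.2, 615, 797, 225 and 475 CPM in WT_WLM and at 1463, 572, 404, 704 and 535 CPM in mCK-hLPL_WLM. It was at 1166, 626, 473 and 2017 CPM in WT_REL and at 5154, 1924, 1266, 813 and 1787 CPM in mCK-hLPL_REL. The groups overlapped, with 4 of 9 refed libraries above all of WLM. Hbb-bt, the minor beta globin row, was at 25.6, 34.3, 38.7, 12.0 and 24.0 CPM in WT_WLM and at 80.0, 32.4, 21.9, 34.2 and 27.3 CPM in mCK-hLPL_WLM. It was at 70.2, 36.0, 31.1 and 113 CPM in WT_REL and at 322, 115, 76.9, 48.0 and 115 CPM in mCK-hLPL_REL. Again 4 of 9 refed libraries exceeded all of WLM, and 5 of 10 WLM libraries lay below all of REL.

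Alas2 makes the heme precursor in developing red cells, whereas Alas1 serves other tissues. Alas2 was at 9.58, 11.8, 15.3, 4.32 and 9.57 CPM in WT_WLM and at 30.9, 10.5, 7.45, 14.1 and 11.4 CPM in mCK-hLPL_WLM. It was at 24.9, 13.5, 11.5 and 38.9 CPM in WT_REL and at 122, 43.3, 26.9, 16.4 and 32.2 CPM in mCK-hLPL_REL. The order of libraries resembled that of the globin rows, with 4 of 9 refed libraries above all of WLM.

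Slc4a1 was the scarcest of the 6 and rested on few counts. It had 4, 5, 5, 4 and 2 counts in WT_WLM replicates 1 to 5, and 19, 2, 1, 3 and 7 counts in mCK-hLPL_WLM replicates 1 to 5. After refeeding it had 28, 11, 16 and 27 counts in WT_REL replicates 1, 2, A and B and 86, 50, 36, 11 and 24 counts in mCK-hLPL_REL replicates 1 to 5. In WLM its mean was 0.0997 ± 0.0353 CPM for wild type and 0.143 ± 0.162 CPM for mCK-hLPL (SD, n = 5 each). In REL the means were 0.443 ± 0.141 CPM for wild type (SD, n = 4) and 0.882 ± 0.757 CPM for mCK-hLPL (SD, n = 5). All 4 WT_REL libraries lay above all 5 of WT_WLM, which was so for 5.64% of all 17028 genes tested. The mCK-hLPL groups overlapped for Slc4a1 and the other 5, where 3.21% of all genes had every refed library above every WLM library. Slc4a1 reached the level used by the low-count filter, 0.219 CPM, in 9 of 9 refed libraries but in 1 of 10 WLM libraries, so it entered the test through the refed ones, whereas the other 5 genes passed it in all 19.

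**Figure D1:**
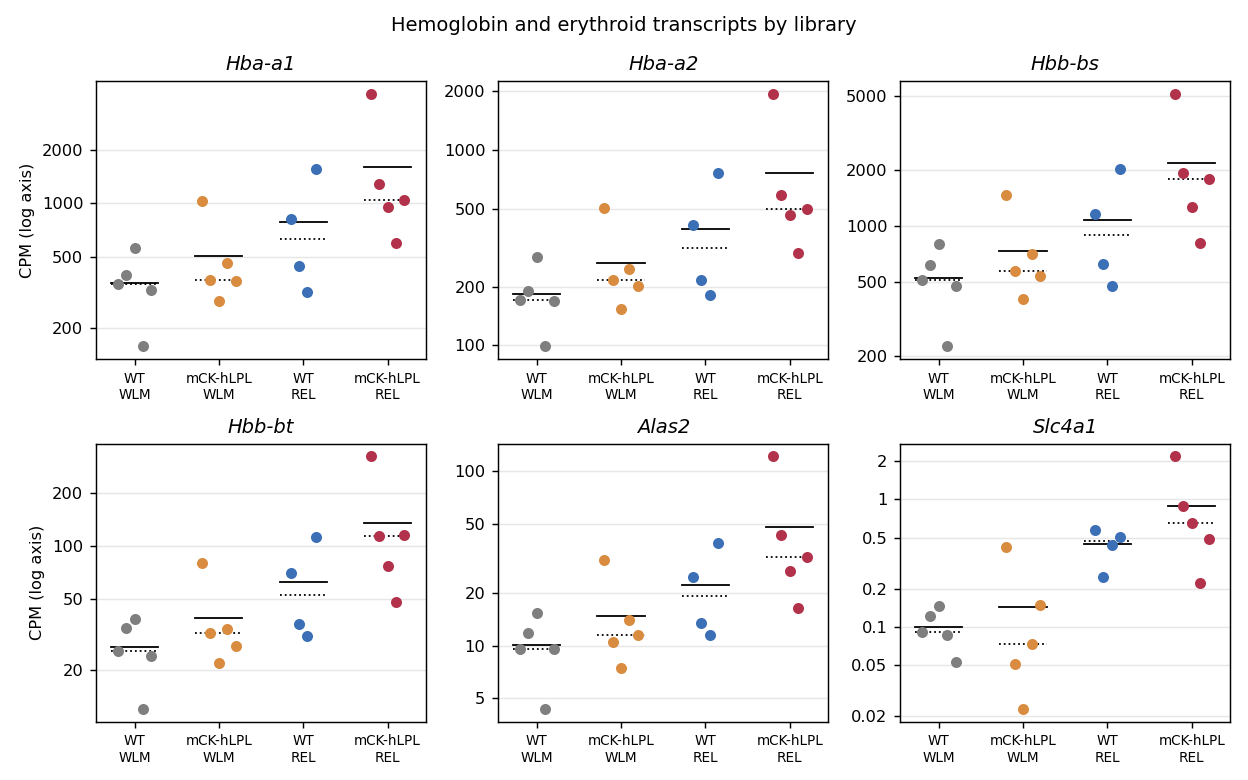
Level of each of the 6 genes in CPM (log axis) for every library, with libraries of a group in replicate order, group means as solid lines and medians as dotted lines. Refed groups have the higher means in all 6 panels, the groups overlap except Slc4a1 in WT, and replicate 1 of mCK-hLPL_REL is the highest library throughout.

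Per kilobase of the longest annotated transcript, the 6 genes kept 1 order in all 19 libraries: Hbb-bs, Hba-a1, Hba-a2, Hbb-bt, Alas2 and Slc4a1. In WT_WLM the level of Hbb-bs was 835 ± 333 CPM per kb (SD, n = 5) and that of Hba-a1 512 ± 206 CPM per kb (SD, n = 5). Alas2 was at 4.96 ± 1.96 CPM per kb (SD, n = 5) and Slc4a1 at 0.0219 ± 0.00777 CPM per kb (SD, n = 5). For all 6 genes the group means stood in 1 order, lowest in WT_WLM, then mCK-hLPL_WLM, then WT_REL and highest in mCK-hLPL_REL. Neighbouring groups overlapped for all 6, and for Slc4a1 the medians of the first 2 groups were in the other order.

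The comparison of refed with WLM muscle, averaged over the genotypes, asks whether red cell transcripts differed after 1 day of refeeding. All 6 genes were higher after refeeding in edgeR's quasi-likelihood test, at an adjusted p below 0.05 over all genes. In that comparison 20.7% of all 17028 genes tested were called and 10.7% were called higher. Hba-a1 rose by 1.40 ± 0.37 on the log2 scale (SE, edgeR adjusted p = 0.0119) and Hba-a2 by 1.31 ± 0.35 (adjusted p = 0.0118). Hbb-bs rose by 1.30 ± 0.35 (edgeR adjusted p = 0.0129) and Hbb-bt by 1.50 ± 0.35 (adjusted p = 0.00511). Alas2, the heme enzyme, rose by 1.42 ± 0.36 (edgeR adjusted p = 0.00952). Slc4a1, the membrane exchanger, had the largest fitted change of the 6, at 2.35 ± 0.45 (edgeR adjusted p = 0.00126), and with no low-count filter it was still called (adjusted p = 0.000768). The size of that change rests on 1 to 19 counts a library in WLM, and the gene passed the filter through the refed libraries. The median change of all genes tested was 0.0014, and 50.2% of them were higher.

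These calls held without any 1 of the 19 libraries. They did not all hold under 2 other conditions: 3 of 6 were called without the 3 libraries richest in lymph node transcripts (Hbb-bt, Alas2 and Slc4a1, with adjusted p = 0.0566 for Hba-a1, 0.0577 for Hba-a2 and 0.0603 for Hbb-bs), and 1 of 6, Slc4a1, when replicate number was a block. Calls fell outside the 6 genes too. With the block fewer of all genes were called. Of 41 genes of the lists below called with all libraries, 34 were tested and 21 called without the lymph node-rich ones. Those 41 include 8 B, T and lymph node genes, whose list was used to pick the libraries left out, so the loss of these 8 was set in advance. Why fewer of the 6 genes were called in these fits was not tested. No gene of the 6 had every refed library above every WLM library, which was so for 0.998% of all genes.

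Within wild type, none of the 6 passed, although 4.88% of all genes did and 2.63% were called higher. The log2 changes ran from 1.03 ± 0.50 for Hbb-bs (SE, edgeR adjusted p = 0.255) to 2.13 ± 0.67 for Slc4a1 (adjusted p = 0.0730). All but Hbb-bs had an unadjusted p below 0.05, as did 10.6% of all genes in the higher direction. DESeq2 called Slc4a1 alone (adjusted p = 0.0253), and so did a fit of the 2 wild-type groups (edgeR adjusted p = 0.0115).

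Within mCK-hLPL, 3 of the 6 passed, against 8.15% of all genes called and 4.11% called higher. Slc4a1 rose by 2.56 ± 0.60 (SE, edgeR adjusted p = 0.0141), Hbb-bt by 1.79 ± 0.48 (adjusted p = 0.0300) and Alas2 by 1.69 ± 0.50 (adjusted p = 0.0431). Hba-a1 at 1.67 ± 0.52 (SE, edgeR adjusted p = 0.0523), Hbb-bs at 1.57 ± 0.49 (adjusted p = 0.0524) and Hba-a2 at 1.52 ± 0.48 (adjusted p = 0.0575) stood just above the threshold. Over all genes, 674 to 1705 were called when each library was left out in turn, against 1387 with every library in the fit. The count of the 6 genes called ran from 1 to 6 in the same fits. It was 1 without mCK-hLPL_REL replicate 1 or any of mCK-hLPL_WLM replicates 2 to 5, 5 without WT_WLM replicate 4, and 6 without mCK-hLPL_WLM replicate 1, mCK-hLPL_REL replicate 4 or WT_REL replicate B. It was 0 without the 3 libraries richest in lymph node transcripts, 6 without the 3 richest in liver transcripts, 5 with DESeq2 and 0 with only the 2 mCK-hLPL groups in the fit. The 6 without liver-rich libraries and the 5 with DESeq2 stand here without the share of all genes called in those fits. They are therefore not read as particular to these genes. The number past the threshold in this genotype thus depended on which libraries were in the fit, while the fitted direction was higher in each of these settings.

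The comparison of genotypes asks whether the transgene went with a different level of these transcripts. In WLM, 0 of 6 passed in edgeR and in DESeq2, none had an unadjusted p below 0.05, where 0.0294% of all genes were called, 0.0235% were called higher in mCK-hLPL and 2.39% were higher at an unadjusted p below 0.05. The fitted differences, mCK-hLPL minus WT, ran from 0.49 ± 0.48 for Hbb-bs (SE) to 0.56 ± 0.50 for Alas2 (edgeR adjusted p from 0.942 to 0.947). In REL, 0 of 6 passed in edgeR and in DESeq2, against 0.0117% of all genes, and Hbb-bt and Alas2 had an unadjusted p below 0.05, as did 2.24% of all genes in the higher direction. There the differences ran from 0.95 ± 0.51 for Hba-a2 to 1.11 ± 0.51 for Hbb-bt (SE, edgeR adjusted p = 0.9995 for all 6). The means in REL rested strongly on single libraries: the mean of Hba-a1 in mCK-hLPL_REL was 1601 ± 1427 CPM with replicate 1 (SD, n = 5) and 972 ± 285 CPM without it (SD, n = 4). That of WT_REL was 782 ± 555 CPM (SD, n = 4), with replicate B at 1552 CPM and the others up to 811. With 1 library left out the difference for Hba-a1 ran from 0.33 to 1.62, and 0 of 6 genes passed each time. An edgeR unadjusted p below 0.05 was reached by 0 of 6 without mCK-hLPL_REL replicate 1. It was reached by 5 without WT_REL replicate B and by 6 without mCK-hLPL_REL replicate 4.

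The test of whether refeeding acted differently in the 2 genotypes called 0 of 6 genes in edgeR and in DESeq2, with 0 at an unadjusted p below 0.05. The interaction ran from 0.42 ± 0.69 for Hba-a2 to 0.57 ± 0.69 for Hbb-bt (SE, edgeR adjusted p = 0.9998 for all 6). Over all genes 0% were called by edgeR, with 403 of 17028 at an unadjusted p below 0.05, 1.27% of all at such a p and positive, and 2 called by DESeq2. Without mCK-hLPL_REL replicate 1 the interaction turned negative for all 6 genes, from -0.29 for Hba-a2 to -0.035 for Hbb-bt. A difference in the response between genotypes was not detectable with this spread.

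**Figure D2:**
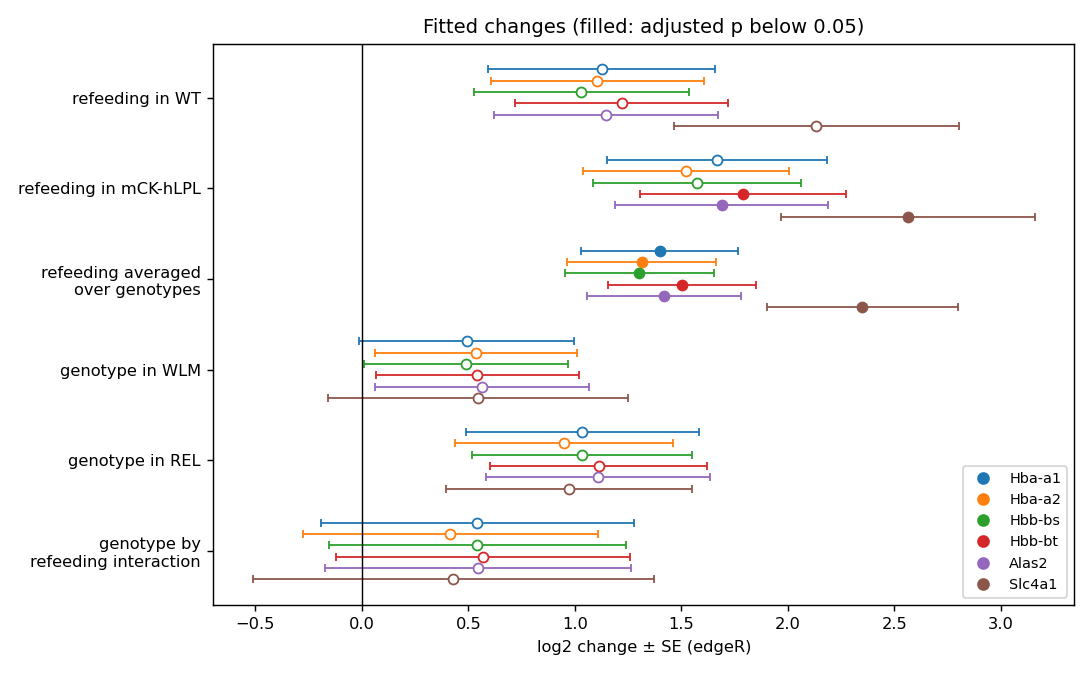
Fitted log2 change of each gene in the 6 comparisons, with bars of 1 SE and filled points where the edgeR adjusted p was below 0.05. Filled points appear for all 6 genes in refeeding averaged over genotypes, for 3 in mCK-hLPL, and for none between genotypes or in the interaction.

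Within a library the globin rows and Alas2 kept nearly fixed proportions while their level varied widely. From the lowest to the highest library Hba-a1 differed 26.1-fold and Hbb-bs 22.9-fold. The alpha chain rows held between 44.8% and 52.5% of the hemoglobin counts. In mean this share was 49.8 ± 1.20% (SD, n = 10) in WLM and 49.9 ± 2.37% (SD, n = 9) in REL. Hba-a1 held between 61.5% and 68.6% of the alpha chain counts. Alas2 had between 8.64 and 11.5 counts per 1000 hemoglobin counts in a library. In mean this was 9.35 ± 0.53 (SD, n = 10) in WLM and 10.06 ± 0.88 (SD, n = 9) in REL, with 5 of 9 REL libraries above all 10 of WLM. Most of what varied between libraries was thus common to the globin rows and Alas2.

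The minor beta globin row took a somewhat larger part of the beta chain counts after refeeding. Hbb-bt held between 4.63% and 5.37% of them in WLM libraries and between 5.29% and 6.17% in REL libraries, and 8 of 9 REL libraries lay above all 10 of WLM. The means were 4.97 ± 0.27% (SD, n = 10) and 5.72 ± 0.28% (SD, n = 9). Because the copies differ by 1 coding base, part of this share may be set by how reads were divided between them, which was not tested. Slc4a1 also stood higher against hemoglobin after refeeding. It had 9.32 counts per 100000 hemoglobin counts in the pooled WT_WLM libraries (95% exact Poisson interval 5.69 to 14.4, counting error only) and 9.52 (6.51 to 13.4) in mCK-hLPL_WLM. It had 18.1 (14.4 to 22.5) in WT_REL and 19.01 (16.5 to 21.8) in mCK-hLPL_REL. Single libraries overlapped, from 2.64 to 17.4 in WLM and from 11.4 to 43.9 in REL. No test was run on these proportions, since the genes were chosen with results known.

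**Figure D3:**
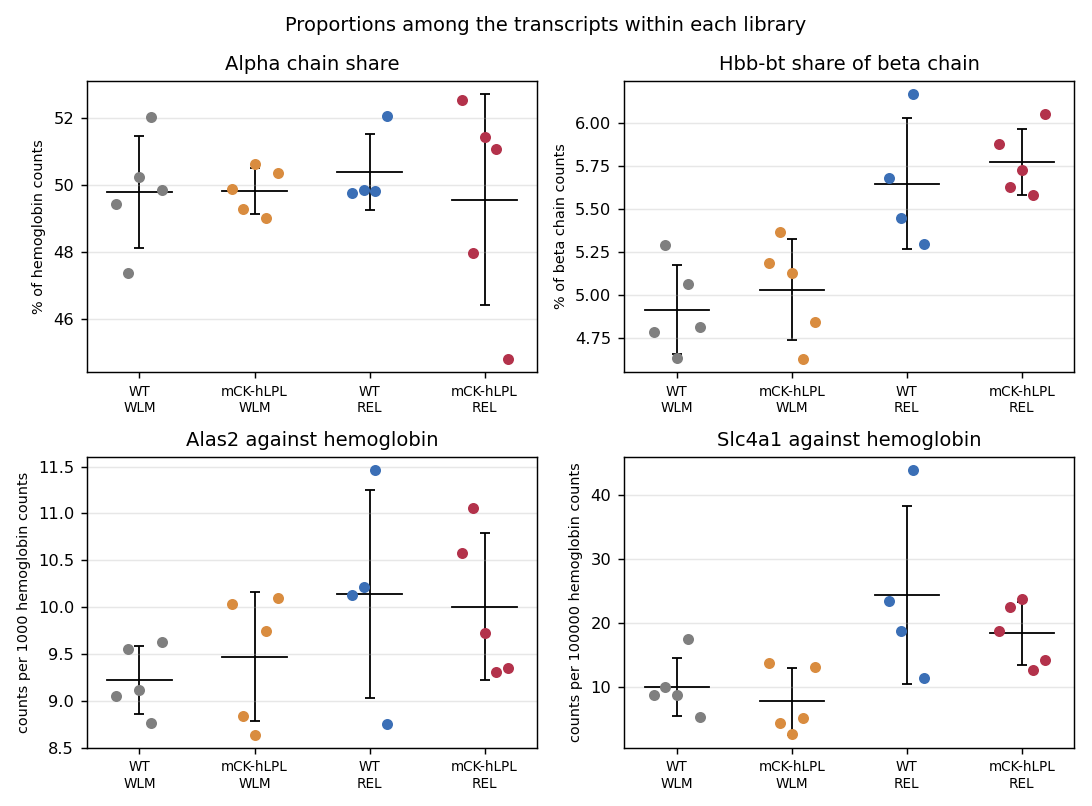
Proportions within each library by group: alpha chain share of hemoglobin counts, Hbb-bt share of beta chain counts, Alas2 counts per 1000 and Slc4a1 counts per 100000 hemoglobin counts, with group means and SD (vertical axes do not start at 0). The alpha chain share stays near 50%, and the Hbb-bt share is 5.29% or more in all REL libraries.

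Across the 19 libraries log2 CPM of the members moved together in all 15 pairs. The 6 pairs of globin rows had Pearson's r from 0.986 to 0.997 and Spearman's rho from 0.965 to 1. The 4 pairs of Alas2 with a globin row had r from 0.990 to 0.995 and rho from 0.974 to 0.984. The 5 pairs with Slc4a1, which has the fewest counts, had r from 0.850 to 0.886 and rho from 0.783 to 0.856. Permutation p for r, adjusted over the 15 pairs, was 1e-05 throughout, the smallest that 100000 resamples can give, and the largest for rho was 0.00016. Without the 2 libraries farthest from the median, r ran from 0.982 to 0.995 in the globin pairs and from 0.784 to 0.868 in those with Slc4a1. Within WLM alone the globin pairs had r from 0.979 to 0.997 and within REL from 0.984 to 0.998, and the pairs with Slc4a1 had r from 0.690 to 0.725 and from 0.832 to 0.889. Both genes of a pair share the depth and scaling of each library. Reads common to Hba-a1 and Hba-a2, or to Hbb-bs and Hbb-bt, were divided in a way not stated, which may set part of their r. The permutations took no account of group, and the genes were chosen with results known.

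The genes whose pattern over the 19 libraries was most like the hemoglobin sum were found by Pearson's r of log2 CPM, given as a description. Of 17022 other genes, 7 had r over 0.9, where the median was 0.0076 and the 95th percentile 0.607. Those 7 included Ube2l6 (r = 0.962), Tent5c (0.958), Isg20 (0.956), Mkrn1 (0.941) and Rgs18 (0.918), and the 10 highest also included Rsad2 (0.881), Gnb4 (0.866) and Cd9 (0.865). The r was 0.795 to 0.938 over all 10 without the 2 libraries farthest from the median. By deviations from the group means, 8 of the 10 were again among the 10 highest, and by Spearman's rho 5 were. Ube2l6, Isg20 and Mkrn1 also stand in the lists of red cell transcripts described next. Ube2l6, a conjugating enzyme for ISG15, had 3.01 to 7.87 CPM in WT_WLM and 6.29 to 25.0 in mCK-hLPL_REL.

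**Figure D4:**
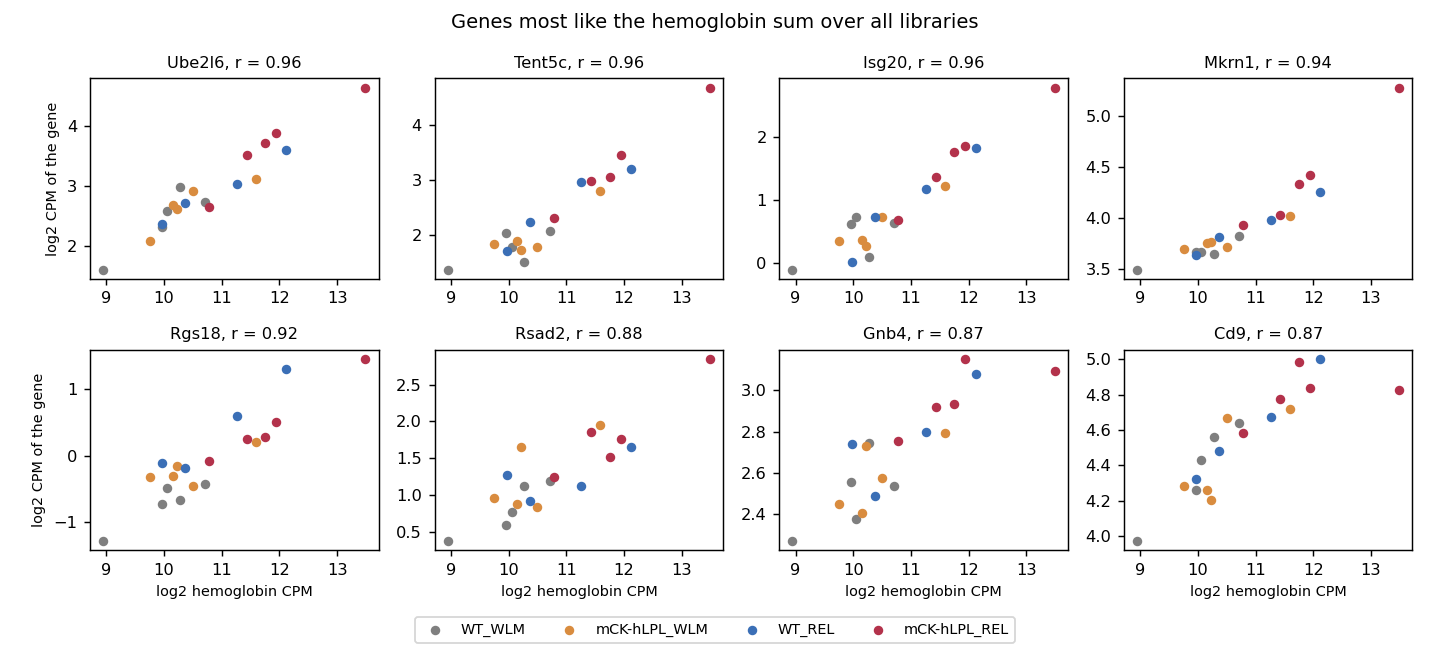
Log2 CPM of 8 of the 10 genes most like the hemoglobin sum against log2 of summed hemoglobin CPM, 1 point for each of 19 libraries, coloured by group. All 8 are higher where the hemoglobin sum is higher, from r = 0.962 for Ube2l6 to r = 0.865 for Cd9.

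Other red cell genes were read from 3 lists, and their counts are set against the 20.7% of all genes called for refeeding averaged over genotypes. Of 15 genes of the red cell membrane and skeleton, 9 passed the low-count filter, of which 3 were called higher and 1 lower, with a median change of -0.03. Dmtn, the actin binding protein dematin, rose by 0.67 ± 0.13 on the log2 scale (SE, edgeR adjusted p = 0.00169) and Ank1, ankyrin, by 0.40 ± 0.09 (adjusted p = 0.00568). Sptb, the beta spectrin, fell by 0.40 ± 0.11 on that scale (edgeR adjusted p = 0.0189) and is named after its value was seen. Without the 3 lymph node-rich libraries Sptb was not called (edgeR adjusted p = 0.0616). Ank1 and Sptb are made by muscle fibres too, and they stood at 293 to 640 and 208 to 582 CPM over the libraries.

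Of 22 other red cell and reticulocyte genes, 21 were in the table and 17 were tested, of which 6 were called higher and 1 lower, with a median change of 0.16. Isg20 rose by 0.97 ± 0.26 (SE, edgeR adjusted p = 0.0124), Ube2l6 by 0.80 ± 0.23 (adjusted p = 0.0168) and Mkrn1 by 0.48 ± 0.14 (adjusted p = 0.0176). Tfrc, the transferrin receptor that brings iron into red cell precursors and into other cells, rose by 0.65 ± 0.08 (edgeR adjusted p = 4.71e-05). Its r with the hemoglobin sum was 0.361, and it was negative within WLM (-0.439) and within REL (-0.376). Fam210b, a mitochondrial protein, fell by 0.31 ± 0.06 (edgeR adjusted p = 0.000904). Leaving out WT_REL replicate B ended the call of Ube2l6 (edgeR adjusted p = 0.0514), and leaving out the 3 lymph node-rich libraries ended those of Ube2l6 (0.0697) and Mkrn1 (0.0648). Within wild type 2 of the 17 were called higher, Tfrc among them, and 1 lower, Fam210b, beside 4.88% of all genes called. Within mCK-hLPL 5 were called higher, Tfrc, Ube2l6, Isg20 and Mkrn1 among them, and 1 lower, again Fam210b, beside 8.15%. Leaving out 1 library ended the mCK-hLPL call of Fam210b in 11 of 19 cases, of Isg20 in 7, of Ube2l6 in 6 and of Mkrn1 in 5, and it ended the wild-type call of Fam210b in 3. A difference between genotypes for these genes was not detectable in the interaction, where edgeR called 0% of all genes.

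Genes that mark red cell precursors were close to absent. Rhag, of the Rh complex, had 16 counts over all 19 libraries. The factors Gata1 and Klf1 had 21 and 33 counts in all, and Hemgn had 15, and none of these 4 passed the low-count filter. Of the 10 erythroid transcription factors 5 were tested, and Lmo2 was called higher (0.28 ± 0.08, SE, edgeR adjusted p = 0.0217) and Ldb1 lower (-0.22 ± 0.05, adjusted p = 0.00643). Without WT_REL replicate B Lmo2 was not called (edgeR adjusted p = 0.0559). The median change of the 5 was -0.13.

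Of 9 other globin genes with a row of counts, 2 passed the low-count filter, Mb and Cygb, and neither was called higher. Hbq1a and Hbq1b, with 77 and 67 counts in all, were not tested. Their means were lowest in WT_WLM (0.0404 and 0.00581 CPM) and highest in mCK-hLPL_REL (0.183 and 0.144 CPM). The embryonic genes Hba-x, Hbb-y and Hbb-bh2 had 0 counts in all 19 libraries and Hbb-bh1 had 1. A count of 0 allows up to 3 counts over the libraries together. Mb, the myoglobin of muscle fibres, was at 2097 CPM in the mean of WT_WLM and 1610.4 in mCK-hLPL_REL, and it fell by 0.31 ± 0.10 on the log2 scale (SE, edgeR adjusted p = 0.0437). That call ended when 1 library was left out in 12 of 19 cases, and without the 3 liver-rich libraries (edgeR adjusted p = 0.0707). Cygb, cytoglobin, was not called (0.26 ± 0.11, SE, edgeR adjusted p = 0.107), and its r with the hemoglobin sum was 0.824.

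Alas2 was the heme synthesis gene that was called. Of the 8 other genes of heme synthesis, all tested, 0 were called in edgeR for refeeding in either genotype or in the average, where 1 had an unadjusted p below 0.05. In the average their changes ran from -0.11 to 0.13. The change was 0.11 ± 0.05 for Alas1 (SE, edgeR adjusted p = 0.180) and -0.07 ± 0.07 for Fech, which inserts iron into the ring (adjusted p = 0.515), both named for their roles outside the naming rule.

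Markers of other blood and tissue cells were read in the same comparison, where 20.7% of all genes were called and 10.7% were called higher, and their part in the result was not tested. Over all the lists 41 genes were called. Without the 3 lymph node-rich libraries 34 of these were still tested and 21 still called, and without the 3 liver-rich libraries 41 were tested and 25 called. Of 6 tested platelet genes 3 were called higher and 0 lower: Ppbp (1.32 ± 0.37, SE, edgeR adjusted p = 0.0175), Gp9 (1.23 ± 0.40, adjusted p = 0.0348) and Clec1b (1.17 ± 0.40, adjusted p = 0.0456). The 8 platelet genes summed to between 3.87 and 10.2 CPM in WLM libraries and between 6.45 and 17.1 CPM in REL libraries. Ppbp was not called without WT_REL replicate B (edgeR adjusted p = 0.0744), and leaving out 1 library ended the call of Gp9 in 8 of 19 cases and of Clec1b in 10 of 19. Without the lymph node-rich libraries none of the 3 was called (edgeR adjusted p = 0.0821 for Ppbp, 0.127 for Gp9 and 0.154 for Clec1b), and without the liver-rich libraries Ppbp alone was (adjusted p = 0.0239). Of 5 tested neutrophil genes 0 were called and 0 had an unadjusted p below 0.05, and the 10 listed summed to between 4.01 and 6.13 CPM. The 5 that passed the filter, Cxcr2, Mmp9, Csf3r, S100a9 and S100a8, had 2324, 891, 403, 203 and 198 counts in all, and the granule protein genes Ngp, Camp and Ltf had 3, 6 and 10.

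Of 10 tested B, T and lymph node genes 8 were called lower and 0 higher. Their list summed to between 9.48 and 72.7 CPM in WLM and between 13.8 and 22.1 CPM in REL. The 3 libraries singled out by this list stood at 58.2, 69.2 and 72.7 CPM, and the other WLM libraries between 9.48 and 17.4 CPM. Without those 3, 7 of the 8 genes no longer passed the low-count filter and the other one, Ms4a1, was not called (log2 change -0.27 against -4.20 with them, edgeR adjusted p = 0.794). Without the 3 liver-rich libraries none of the 8 was called (edgeR adjusted p from 0.0689 to 0.154). Of 10 monocyte and macrophage genes only Adgre1 was called, higher (0.86), and the sums ran from 37.4 to 129 CPM in WLM and from 73.0 to 168 CPM in REL. Of 10 endothelial genes 3 were higher and 1 lower, with sums from 233 to 381 CPM in WLM and from 293 to 396 CPM in REL. Serpina1a was the 1 of 12 liver genes called (1.62), and its call ended without WT_REL replicate B or mCK-hLPL_REL replicate 5 (edgeR adjusted p up to 0.126) and without the 3 liver-rich libraries (log2 change 0.39, adjusted p = 0.539). Liver sums ran from 23.1 to 91.0 CPM in WLM and from 37.1 to 247 CPM in REL. Plin1 was the 1 of 6 fat cell genes called (0.72), though not without WT_REL replicate B (edgeR adjusted p = 0.0526), with sums from 159.5 to 462 CPM in WLM and from 179.9 to 477 CPM in REL. Of the 10 muscle genes 4 were lower and 1 higher. No gene of the lists was called by edgeR between genotypes or in the interaction, and of the 124 tested 2, 4 and 1 had an unadjusted p below 0.05 in WLM, in REL and in the interaction.

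**Figure D5:**
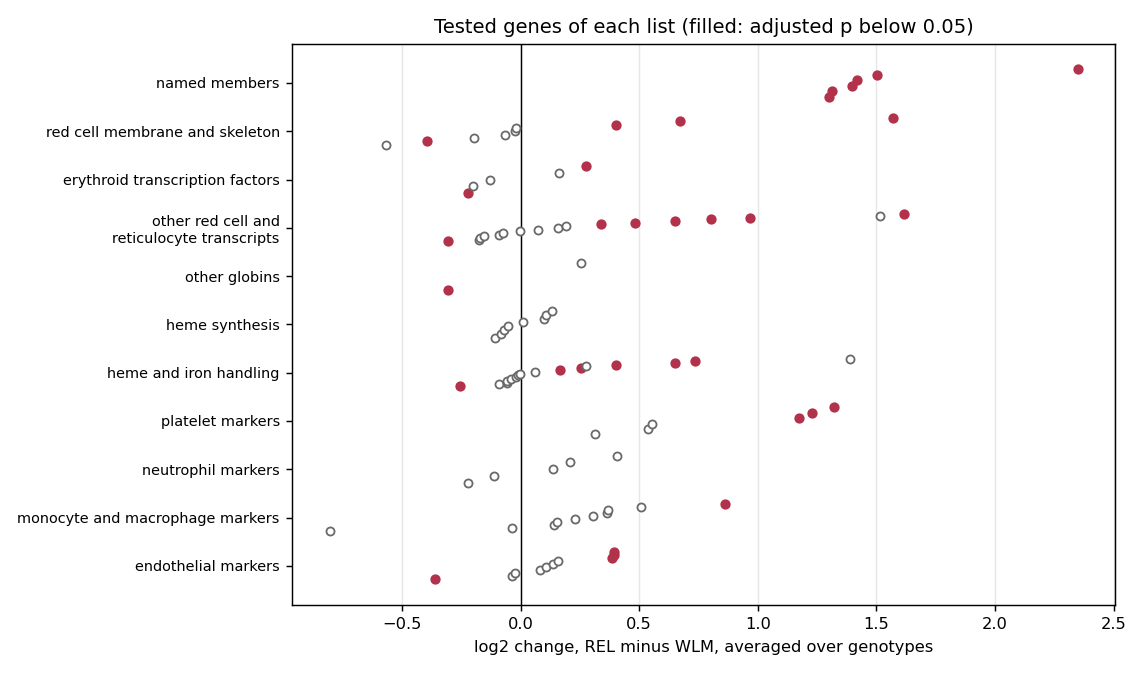
Log2 change after refeeding, averaged over genotypes, of the 6 genes (top line) and of the tested genes of 10 lists, 1 point a gene, filled where the edgeR adjusted p was below 0.05. The 6 genes lie between 1.30 and 2.35, the heme synthesis genes lie between -0.11 and 0.13, and 3 platelet genes lie between 1.17 and 1.32.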

How the data were processed

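RNA of 19 gastrocnemius samples was sequenced from mRNA libraries (NuGEN Universal Plus). The deposited table holds raw counts, whole numbers for 54176 gene symbols. Salmon 0.14.2 and DESeq2 1.28.1 are named in the submitters' processing notes, with mm10 and GRCm38 as builds. What each did, the strand setting and the annotation were not stated. The 6 genes and 14 lists were chosen with earlier results of these data known.

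Genes passing filterByExpr (minimum count 10, minimum total 15), 17028 in number, were scaled with TMM and tested with edgeR 4.0.16 (R 4.3.3, limma 3.58.1; glmQLFit, glmQLFTest) in 1 model of the 4 group means. P-values were two-sided, adjusted by Benjamini-Hochberg over all genes tested and called below 0.05. The SE of a log2 change is that change over the root of its F statistic. For logarithms of CPM a prior count of 2 was used. Named genes are the 6, up to 3 of smallest p per list and comparison among those called, and the 10 most like the hemoglobin sum. TMM factors ran from 0.880 to 1.17. The smallest chi-square between replicates was 25.6 per degree of freedom over 36 pairs, above what sampling noise would give. The fit was tested on simulated data. Columns of 2 libraries of WT_REL could be tied to their group only. Alternatives covered scaling, filter, DESeq2 1.42, moderation, libraries in the fit, a block for replicate number and omission of single libraries. Gene positions are from GENCODE M21 on GRCm38, and upstream windows from RefSeq on GRCm38.p6. Intervals on counts cover counting error only. Some genes of the lists are counted but not reported here by name.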

Additional observations from a re-analysis of the deposited data

Results flagged for a closer look

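In each group of 4 or 5 libraries, the highest and lowest values of 12 quantities were set against the spread of the others with Dixon's test at the 95% level. Of 48 groups tested, 14 held a library that stood apart. Chance gives about 1 in 20 only where values are normally distributed. The levels were tested as CPM without logarithms, so that rate is no measure for them. The quantities are not independent, since the genes moved together. In mCK-hLPL_REL, replicate 1 stood above the others for Hba-a1 at 4115 CPM (others up to 1288), Hba-a2 at 1940 CPM (others up to 590.1) and Hbb-bs at 5154 CPM (others up to 1924). The same library stood apart for Hbb-bt at 322 CPM, for Alas2 at 122 CPM and for the hemoglobin sum at 11531 CPM. In mCK-hLPL_WLM, replicate 1 stood above the others for Hba-a1 at 1030 CPM (others up to 463), Hba-a2 at 505 CPM (others up to 247) and Hbb-bs at 1463 CPM (others up to 704). It also did so for Hbb-bt at 80.0 CPM, for Alas2 at 30.9 CPM and for the hemoglobin sum at 3078 CPM. In WT_REL the alpha chain share of library B was 52.1% where the others lay between 49.8% and 49.9%. In WT_WLM the Hba-a1 share of alpha chain counts was 61.5% in replicate 4, with the others between 65.8% and 67.6%.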

How the results depend on the processing

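For refeeding averaged over genotypes, 6 of 6 genes were called with the other scaling methods, no filter, DESeq2, robust moderation and without the liver-rich libraries. The count was 3 without the lymph node-rich libraries, and 1 with the replicate block. The block used 17 numbered libraries, and the same 17 without a block gave 6 of 6. Over 21 pairs of same-numbered libraries, r of the deviations from group means ran from -0.356 to 0.211. The median was 0.047, and 7 were over 0.1. Pairs of unlike number were not compared, so whether a shared number marks a shared batch was not tested. In mCK-hLPL 3 were called, against 5 with DESeq2, 0 with only the 2 groups, 0 without the lymph node-rich and 6 without the liver-rich libraries, and from 1 to 6 with a library left out. In WT 0 were called, against 1 with DESeq2, 1 with the 2 groups alone, and from 0 to 1 with a library left out (Slc4a1, without replicate 1 of mCK-hLPL_WLM or mCK-hLPL_REL). Between genotypes and for the interaction the count was 0 in each setting run. The libraries rich in lymph node or liver transcripts, and the 17-library fit without a block, were chosen after seeing the data. The cause of these shifts was not tested.

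Values that changed sign were Slc4a1 between genotypes in WLM without mCK-hLPL_WLM replicate 1 (-0.38, up to 0.81 with another left out), and the interaction without mCK-hLPL_REL replicate 1. With 1 library left out the interaction ran from -0.17 to 1.12 for Hba-a1, -0.29 to 0.96 for Hba-a2, -0.050 to 1.05 for Hbb-bs, -0.035 to 1.02 for Hbb-bt, -0.15 to 0.998 for Alas2 and -0.20 to 1.36 for Slc4a1. Genes called over the whole table numbered 831 for refeeding in WT, against 492 with no filter, 1372 with DESeq2, 32 with the block, 166 in the 17 libraries without it, 316 without the lymph node-rich and 462 without the liver-rich libraries. In mCK-hLPL they numbered 1387, against 793 with no filter, 628 with the 2 groups, 484 with the block and 608 without the lymph node-rich libraries. The numbers for mCK-hLPL with DESeq2 and without the liver-rich libraries are not given here. In the average they numbered 3521, against 992 with the block and 2170 in the 17 libraries without it. Between genotypes they numbered 5 in WLM, against 22 with DESeq2, 2 with the 2 groups, 2 with the block and 3 without the lymph node-rich libraries, and 2 in REL, against 27 with DESeq2 and 1 with the block. Slc4a1, with 1 to 86 counts a library, is the gene that depth limits most.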

Other observations

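Genes that handle heme and iron outside its synthesis were read as a further list. Of 16 tested genes, 5 were called higher and 1 lower for refeeding averaged over genotypes, beside 20.7% of all genes called, and the median change was 0.03. Hp, haptoglobin, which binds free hemoglobin in plasma, rose by 0.73 ± 0.15 on the log2 scale (SE, edgeR adjusted p = 0.00183). It was at 22.9 ± 5.16 CPM in WT_WLM (SD, n = 5), 22.1 ± 5.34 CPM in mCK-hLPL_WLM (SD, n = 5), 35.6 ± 13.0 CPM in WT_REL (SD, n = 4) and 39.5 ± 5.53 CPM in mCK-hLPL_REL (SD, n = 5). Its r with the hemoglobin sum was 0.481 over 19 libraries and near 0 as deviations from group means (-0.026). Slc48a1, a heme transporter, rose by 0.17 ± 0.05 (SE, edgeR adjusted p = 0.0187), but was not called without the 3 lymph node-rich libraries (adjusted p = 0.0983). Slc40a1, the iron exporter ferroportin, fell by 0.25 ± 0.08 on the log2 scale (SE, edgeR adjusted p = 0.0355), and is named after its value was seen. That call ended when 1 library was left out in 10 of 19 cases. Hmox1, Cd163 and Hpx are named for their roles. Hmox1, the inducible heme oxygenase that breaks heme down, was not called, with a change of -0.00098 ± 0.13 (SE, edgeR adjusted p = 0.997), and stood between 3.81 and 8.48 CPM. Cd163, the receptor by which macrophages take up hemoglobin bound to haptoglobin, was not called either (0.06 ± 0.23, SE, edgeR adjusted p = 0.883). Hpx, hemopexin, was at 0 in at least 1 library and was not called (1.39 ± 0.89, SE, edgeR adjusted p = 0.292).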
